A study of Mus musculus with 6 samples.

Results

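The genes of glycolysis and of lactate and pyruvate handling were taken by gene symbol, 34 of the 39179 genes listed in the expression table, and all 34 were found. They run from the glucose carriers and the glycolytic enzymes to pyruvate oxidation and the coactivator Ppargc1a. Cells turn glucose into pyruvate by glycolysis. Pyruvate can be reduced to lactate by lactate dehydrogenase and leave through the monocarboxylate transporters, or it can enter the mitochondrion and be oxidised by the pyruvate dehydrogenase complex. The pyruvate dehydrogenase kinases (PDK) switch that complex off by phosphorylation, and the PDH phosphatases switch it back on. Cells of the bone-forming lineage are known for high glucose uptake and for releasing lactate when oxygen is present.

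The genes were measured by RNA-seq in Ocy454 cells, a mouse osteocytic line, here a subclone grown from a single cell. The cells were grown to confluence at 33 °C and kept at 37 °C for 14 days. They were treated for 4 h with vehicle, with 1 nM PTH 1-34 (the active fragment of parathyroid hormone), or with 0.5 µM YKL-05-093. YKL-05-093 is a compound that inhibits salt-inducible kinases (SIK). The study reports that it also targets other kinases in vitro, and that some genes responded to it in cells lacking SIK2 and SIK3. The sample labels give the vehicle as PBS with 25 mM HCl, whereas the study's methods name DMSO as the solvent of the compounds for in vitro work, so the solvent of the vehicle cultures is uncertain. The medium of every culture was replaced 24 h before the cells were collected, and each treatment has 2 libraries of RNA depleted of ribosomal RNA. The study calls the 2 libraries of a group experimental duplicates without saying whether they came from separate cultures, so the p-values measure the spread between libraries, which may be technical.

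Values are RPKM, reads scaled to gene length and to the size of the library. Levels and shares can be set side by side between genes only roughly. The vehicle libraries differed with gene length, and some members share sequence with other genes, as given below. The libraries held 17505798 to 27983585 reads, worked back from the deposited values, and the 34 genes took 0.666% to 0.797% of the reads on genes. Between the 2 libraries of a group, the median absolute difference over the tested genes was 0.333 on the log2 scale in vehicle, 0.108 in PTH and 0.103 in YKL-05-093. Among the osteocyte markers, Pdpn (podoplanin) lay between 53.1 and 171 RPKM, Phex between 0.764 and 4.93 and Dmp1 between 0.376 and 1.15, while Sost and Fgf23 had at most 3 reads in every library and Mepe reached 0.136 RPKM. The 6 osteocyte markers summed to 55.7 and 73.3 RPKM in vehicle, 176 and 165 in PTH and 99.1 and 98.4 in YKL-05-093, a sum that Pdpn dominated. The 8 osteoblast markers were all expressed and summed to 1170 and 1000 RPKM in vehicle, 1430 and 1180 in PTH, and 1210 and 1530 in YKL-05-093. Within that list Sp7 (osterix) was at 46.0 and 45.5 RPKM in vehicle, 12.2 and 11.1 in PTH and 22.4 and 29.6 in YKL-05-093, Runx2 at 19.5 and 13.0, 7.87 and 7.02, and 11.6 and 12.6, and Bglap (osteocalcin) at 6.61 and 11.5, 27.1 and 25.3, and 11.9 and 11.4. The part of these marker differences in the results below was not tested. Of 6 muscle markers 5 had at most 3 reads in every library, as had 3 of 5 adipocyte, 2 of 6 macrophage and osteoclast, 1 of 4 endothelial and 1 of 4 chondrocyte markers. The summed level was 0.303 to 0.437 RPKM for muscle, 1.1 to 2.37 for adipocyte, 0.724 to 2.17 for endothelial and 1.0 to 2.2 for chondrocyte markers. For the macrophage and osteoclast list it was 78.1 to 99.2, nearly all of it from Ctsk (cathepsin K). In that list Cd68 was at 3.69 to 4.42 RPKM, Csf1r reached 0.133, and Ptprc, Acp5 and Ocstamp were at or near 0.

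Of the 33 members that could be tested, 2 passed for PTH against vehicle (6.06%, beside 2.2% of all 14261 genes tested), and both calls were lost when either PTH library was left out. Pdk4, a PDK isoform typical of fasting, and Slc2a3, which encodes the high-affinity glucose carrier GLUT3, rose after PTH, and both were also higher after PTH than after YKL-05-093. The abundant enzymes of the glycolytic trunk showed no called change against vehicle. Pdk1, Pfkl, Pfkm and Pfkfb3 were lower after PTH than after YKL-05-093, by 0.25 to 0.36 on the log2 scale. Between the treatments 6 members were thus called (18.2%, beside 9.81% of all genes), and 0 with all 6 libraries in 1 fit (beside 1.03%). No member passed the test for YKL-05-093 against vehicle, where 0.666% of all 14255 genes passed. In bulk RNA, fewer cells with a message and less of it per cell cannot be told apart.

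The stretch before the Pdk4 gene is shown because Pdk4 was the member that passed both the test and a 2-fold change against vehicle. The stretch of 219 bases is from the RefSeq promoter table on GRCm38.p6, chr6:5496310-5496528, on the minus strand, and lies upstream of the annotated gene. It is written 5′ to 3′, and the capitals mark GCGTG, a core of the hypoxia response element, which starts 71 bases before the RefSeq start of the gene.
Pdk4 promoter: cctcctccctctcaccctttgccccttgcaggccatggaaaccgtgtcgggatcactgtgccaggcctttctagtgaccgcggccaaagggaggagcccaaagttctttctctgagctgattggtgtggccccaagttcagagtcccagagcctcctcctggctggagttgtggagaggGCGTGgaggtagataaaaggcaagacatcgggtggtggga
Promoter windows reached from 250 bases before to 50 after each start and were read on both strands for 4 sets of letters. TGACGTCA, the full cAMP response element, was in 1.79% of 32851 windows of all genes. It was in 1 of 50 windows of the members, that of Ldha. TGACG, the 5-base core that every TGACGTCA holds, was in 20.8% of all windows and in 14 of 50 windows of the members, from 12 genes. The hypoxia cores ACGTG and GCGTG were in 19.6% and 32.4% of all windows, and in 24 and 27 of the 50 windows of the members. The 50 windows came from 33 genes, so that windows of 1 gene can overlap, and Slc2a3 had no window in the table. The letters are a description, and no binding was measured here.

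At the start of the pathway stand the glucose carriers. Slc2a1 (GLUT1), the general glucose carrier of proliferating cells, was the more abundant of the pair, at 53.7 and 57.2 RPKM in vehicle, 42.8 and 40.3 in PTH, and 47.3 and 46.2 in YKL-05-093. The PTH libraries lay below both vehicle libraries, but its log2 fold change of -0.42 ± 0.17 (SE) missed the threshold (limma adjusted p = 0.334). Slc2a3 was at 2.7 and 2.23 RPKM in vehicle, 5.04 and 4.37 in PTH, and 2.68 and 3.12 in YKL-05-093. Both PTH libraries stood above all other libraries, and the vehicle and YKL-05-093 libraries overlapped.

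Slc2a3 rose 1.88-fold after PTH (log2 fold change 0.91 ± 0.17 SE, limma adjusted p = 0.0498), close to the threshold. It was also higher after PTH than after YKL-05-093, by 0.68 ± 0.10 on the log2 scale (limma adjusted p = 0.000219), while YKL-05-093 against vehicle gave 0.23 with a 95% interval of -0.19 to 0.65. Its share of the summed RPKM of the 2 carriers was 4.27% on average in vehicle, 10.2% in PTH and 5.84% in YKL-05-093, so that Slc2a1 still supplied most of the carrier message. The call against vehicle was lost without PTH library 1 (0.81, adjusted p = 0.836) and without PTH library 2 (1.01, adjusted p = 0.644), with pseudocounts of 0.01 and 1 (adjusted p = 0.059 and 0.0637), and in 2 further settings. That against YKL-05-093 was lost without PTH library 1 (adjusted p = 0.23), without PTH library 2 (adjusted p = 0.192), without YKL-05-093 library 1 (adjusted p = 0.0845), and in 3 further settings (no filter, 1 fit of all libraries, and the trend of the spread on mean RPKM, with adjusted p = 0.113, 0.12 and 0.0551).

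**Figure D1:**
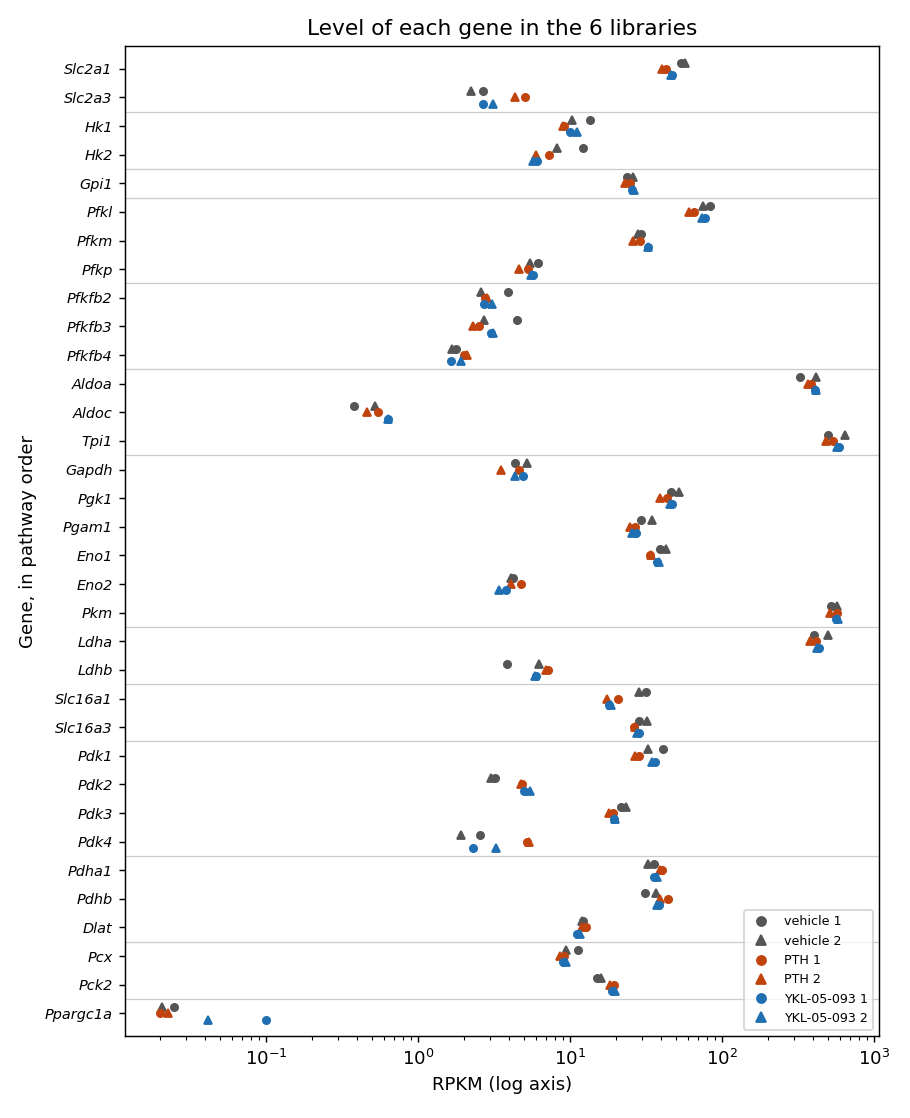
RPKM of the 34 genes in each of the 6 libraries on a log axis, 1 row per gene in pathway order, with colour for the treatment and shape for library 1 or 2. Pkm, Tpi1, Ldha and Aldoa stand apart at the right between 327 and 648 RPKM, and Ppargc1a at the left is under 0.1 RPKM.

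Hexokinases trap glucose in the cell by phosphorylation. Hk1, the constitutive form, was at 13.5 and 10.4 RPKM in vehicle, 9.16 and 8.98 in PTH, and 10.1 and 11.1 in YKL-05-093. Its log2 difference between PTH and YKL-05-093 was -0.23 ± 0.07 (SE) and just missed the threshold (limma adjusted p = 0.0546). With voom, and with length and GC trends removed, it passed. Hk2, the inducible form, was at 12.3 and 8.22 in vehicle, 7.33 and 6.02 in PTH, and 6.1 and 5.7 in YKL-05-093. All 4 treated libraries lay below both vehicle libraries for Hk2, but the vehicle libraries were also far apart.

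The log2 fold change of Hk2 was -0.59 ± 0.23 (SE) for PTH (limma adjusted p = 0.319) and -0.76 ± 0.22 for YKL-05-093 (limma adjusted p = 0.296), neither past the test. Without vehicle library 2 both passed, and with length and GC trends removed YKL-05-093 passed. Gpi1, glucose-6-phosphate isomerase, lay between 23.2 and 26.3 RPKM in the 6 libraries, with overlap of PTH and vehicle.

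Phosphofructokinase 1 commits the sugar to glycolysis and exists as liver (Pfkl), muscle (Pfkm) and platelet (Pfkp) subunits. In these cells Pfkl led. It was at 84.1 and 75.6 RPKM in vehicle, 65.5 and 61.2 in PTH, and 77.7 and 74.6 in YKL-05-093. Pfkm was at 29.3 and 28.0 in vehicle, 28.9 and 25.9 in PTH, and 32.7 and 32.5 in YKL-05-093. For both genes the PTH libraries lay below the YKL-05-093 libraries, and for Pfkl they also lay below vehicle.

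Pfkl was lower after PTH than after YKL-05-093 by a log2 difference of -0.27 ± 0.07 (SE, limma adjusted p = 0.022), and Pfkm by -0.25 ± 0.07 (limma adjusted p = 0.0331). Against vehicle neither passed, with log2 fold changes of -0.33 for Pfkl and -0.07 for Pfkm after PTH, and of -0.07 and 0.19 after YKL-05-093. Pfkp was the least abundant subunit at 4.61 to 6.2 RPKM, and its difference between the treatments was -0.18 (limma adjusted p = 0.238). In vehicle Pfkl made up 69.8% of the summed RPKM of the 3 subunits, Pfkm 25.1% and Pfkp 5.11%, and in PTH 66.2%, 28.6% and 5.19%. Leaving out any of the 4 treated libraries ended the calls of Pfkl and Pfkm between the treatments (adjusted p between 0.186 and 0.332).

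The bifunctional enzymes of the Pfkfb family set the level of fructose 2,6-bisphosphate, the main activator of phosphofructokinase 1. Pfkfb3, whose product strongly favours synthesis of that activator, was at 4.47 and 2.73 RPKM in vehicle, 2.52 and 2.31 in PTH, and 3.05 and 3.11 in YKL-05-093. It was lower after PTH than after YKL-05-093 by a log2 difference of -0.34 ± 0.09 (SE, limma adjusted p = 0.0273), a call lost when any treated library was left out (adjusted p between 0.203 and 0.318). PTH against vehicle was -0.52 ± 0.24 and did not pass (limma adjusted p = 0.418), and there the PTH libraries were the lower ones with a wide gap between the vehicle libraries.

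Pfkfb2 lay between 2.59 and 3.95 RPKM and Pfkfb4, a hypoxia-responsive form, between 1.66 and 2.11. Neither passed in any comparison. On the log2 scale PTH against vehicle was -0.18 for Pfkfb2 and 0.24 for Pfkfb4. Pfkfb2 shares exon bases and 25.0% of its 50-base stretches with other genes, so its value is uncertain.

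The lower part of glycolysis was carried by a few very abundant messages. Pkm (pyruvate kinase, which makes pyruvate) averaged 556 RPKM over the 6 libraries, Tpi1 (triose phosphate isomerase) 555, Ldha 427 and Aldoa (aldolase, which splits the sugar) 387. These 4 and Pfkl made up 78.1% to 81.0% of the summed RPKM of the members. Pkm was at 523 and 570 RPKM in vehicle, 573 and 514 in PTH, and 568 and 586 in YKL-05-093, and its groups overlapped in the comparison of PTH with vehicle. Tpi1 was at 500 and 648 in vehicle, 536 and 483 in PTH, and 593 and 573 in YKL-05-093. Against vehicle the log2 fold change for PTH was -0.01 with a 95% interval of -0.48 to 0.46 for Pkm, and -0.16 with -0.67 to 0.35 for Tpi1. Changes within these intervals could not be seen.

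Aldoc, the brain form of aldolase, was at 0.38 to 0.641 RPKM on 22 to 48 reads, against 327 to 414 RPKM for Aldoa. Pgk1 (phosphoglycerate kinase, the first ATP-making step) was at 46.5 and 52.3 RPKM in vehicle, 43.5 and 39.5 in PTH, and 47.0 and 45.7 in YKL-05-093. Pgam1 (phosphoglycerate mutase) was at 24.9 to 34.8 RPKM. Of the enolases, Eno1, the widespread form, was at 33.8 to 43.1 RPKM and Eno2, the neuronal form, at 3.43 to 4.77. For Pgk1, Pgam1 and Eno1 both PTH libraries were below both vehicle libraries, with log2 fold changes of -0.25, -0.31 and -0.28 that did not pass (limma adjusted p between 0.516 and 0.633). Eno2 was 0.29 ± 0.10 higher on the log2 scale after PTH than after YKL-05-093 and did not pass (limma adjusted p = 0.0769).

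Gapdh, often used as a reference gene, was at 4.38 and 5.19 RPKM in vehicle, 4.62 and 3.52 in PTH, and 4.92 and 4.33 in YKL-05-093, on 160 to 346 reads. Its neighbours in the pathway, Tpi1 and Pgk1, averaged 555 and 45.7 RPKM. Of the 50-base stretches of the protein-coding transcripts of Gapdh, 58.4% also occur in other genes, 222 of them, of which 213 are pseudogenes. The same share was 68.0% for Pgk1, 49.5% for Eno1, 41.5% for Pgam1, 30.3% for Pdhb, 24.5% for Gpi1 and 23.7% for Pkm, and Ldhb shares such stretches with 1 pseudogene. The handling of reads that map to several places is not given in the sources used here, so the levels of these genes relative to others are uncertain. The part of the shared sequence in the low level of Gapdh was not tested. Slc16a1, Slc16a3, Pdk1, Pdk2, Pdk3, Slc2a3, Hk2, Dlat and Pcx shared 0%, and Pdk4 1.41%. Exons of Pfkm, Pfkfb2 and Pkm overlap another gene on the same strand, and those of Slc2a1, Hk1, Gpi1, Pfkm, Pfkp, Pfkfb2, Aldoa, Tpi1, Gapdh, Pdha1 and Pck2 overlap one on the opposite strand, with the strand setting of the counting not given.

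Pyruvate becomes lactate through Ldha, the muscle-type subunit, and the reverse reaction is favoured by Ldhb, the heart-type subunit. Ldha was at 406 and 498 RPKM in vehicle, 417 and 383 in PTH, and 433 and 423 in YKL-05-093. Ldhb was at 3.85 and 6.31 in vehicle, 7.16 and 6.99 in PTH, and 6.03 and 5.94 in YKL-05-093. Ldha thus supplied 98.2% to 99.1% of the summed RPKM of the pair in each library. Ldhb in PTH lay above vehicle, with a log2 fold change of 0.51 ± 0.24 (SE) that did not pass (limma adjusted p = 0.429), and vehicle library 1 stood low.

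Lactate leaves cells through the monocarboxylate transporters MCT1 (Slc16a1) and MCT4 (Slc16a3). Slc16a1 was at 31.7 and 28.5 RPKM in vehicle, 20.8 and 17.6 in PTH, and 18.0 and 18.8 in YKL-05-093. All 4 treated libraries lay below both vehicle libraries. The log2 fold change was -0.65 for PTH (95% interval -1.06 to -0.24, limma adjusted p = 0.15) and -0.70 for YKL-05-093 (-1.08 to -0.32, limma adjusted p = 0.167). Neither passed, although both passed when all 6 libraries entered 1 fit and when length and GC trends were removed. The 2 comparisons share the vehicle libraries, and PTH and YKL-05-093 differed by 0.05 with a 95% interval of -0.11 to 0.22.

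Slc16a3, the form typical of cells that export lactate, was at 28.6 and 32.2 RPKM in vehicle, 26.6 and 26.7 in PTH, and 28.4 and 27.8 in YKL-05-093. It did not pass in any comparison. Slc16a1 made up 49.7% of the summed RPKM of the 2 transporters in vehicle, 41.8% in PTH and 39.6% in YKL-05-093.

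**Figure D2:**
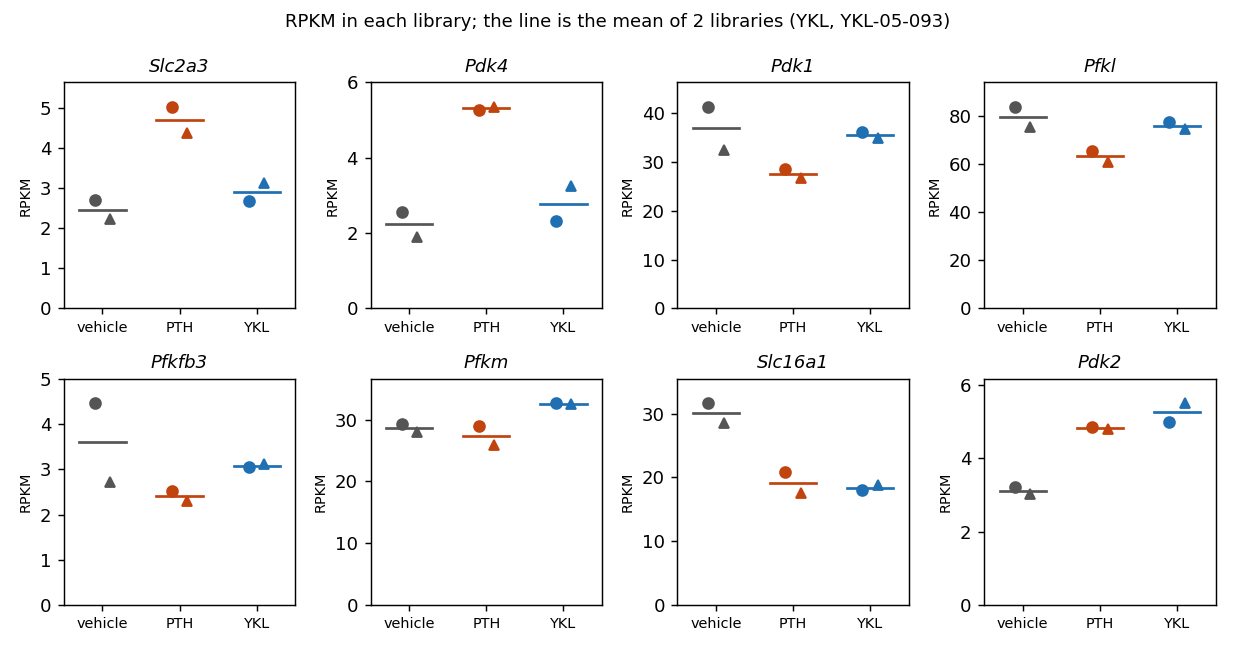
RPKM in each library for 8 genes, on linear axes from 0, with circles for library 1, triangles for library 2 and a line at the mean of 2 libraries. Pdk4 is at 5.26 and 5.36 RPKM in PTH against 1.91 to 3.25 in the other 4 libraries, and Slc16a1 and Pdk2 separate vehicle from both treatments.

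The 4 PDK genes did not move together. Pdk4, the isoform typical of fasting and fat use, was at 2.55 and 1.91 RPKM in vehicle, 5.26 and 5.36 in PTH, and 2.31 and 3.25 in YKL-05-093, on 156 to 398 reads. Both PTH libraries stood above the other 4, and the YKL-05-093 libraries overlapped with vehicle. Pdk4 rose 2.35-fold after PTH (log2 fold change 1.23 ± 0.19 SE, limma adjusted p = 0.021). It was higher after PTH than after YKL-05-093 by 0.93 ± 0.14 on the log2 scale (limma adjusted p = 0.000231), and YKL-05-093 against vehicle was 0.30 with a 95% interval of -0.25 to 0.85.

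The call of Pdk4 against vehicle was lost without PTH library 1 (1.24, adjusted p = 0.365) and without PTH library 2 (1.22, adjusted p = 0.44), with the values hardly moved, and also without the filter on low values (adjusted p = 0.136) and when the trend of the spread followed mean RPKM (adjusted p = 0.0626). The difference from YKL-05-093 was lost without PTH library 1 or 2 (adjusted p = 0.275 and 0.294) and in the same 3 settings as that of Slc2a3 (adjusted p = 0.142, 0.104 and 0.0578). With pseudocount 1 the change against vehicle was 0.97, under the 2-fold limit.

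Pdk1, the isoform induced by hypoxia, was the most abundant at 41.3 and 32.5 RPKM in vehicle, 28.5 and 26.7 in PTH, and 36.1 and 34.9 in YKL-05-093. It was lower after PTH than after YKL-05-093 by a log2 difference of -0.36 ± 0.07 (SE, limma adjusted p = 0.00189). The PTH libraries also lay below vehicle (-0.41, limma adjusted p = 0.424), whereas YKL-05-093 overlapped with vehicle (-0.05). Leaving out any of the 4 treated libraries ended the call between the treatments (adjusted p between 0.117 and 0.217).

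Pdk2, the widely expressed isoform, was at 3.21 and 3.02 RPKM in vehicle, 4.85 and 4.8 in PTH, and 4.99 and 5.51 in YKL-05-093. All 4 treated libraries were above vehicle. The log2 fold change was 0.62 for PTH (95% interval 0.25 to 0.98, limma adjusted p = 0.121) and 0.73 for YKL-05-093 (0.35 to 1.11, limma adjusted p = 0.14), neither past the test, and both passed with all 6 libraries in 1 fit. The treatments differed by -0.12 with an interval of -0.32 to 0.09. Pdk3, an X-linked isoform, was at 18.0 to 23.3 RPKM, with PTH and YKL-05-093 below vehicle and no call.

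**Figure D3:**
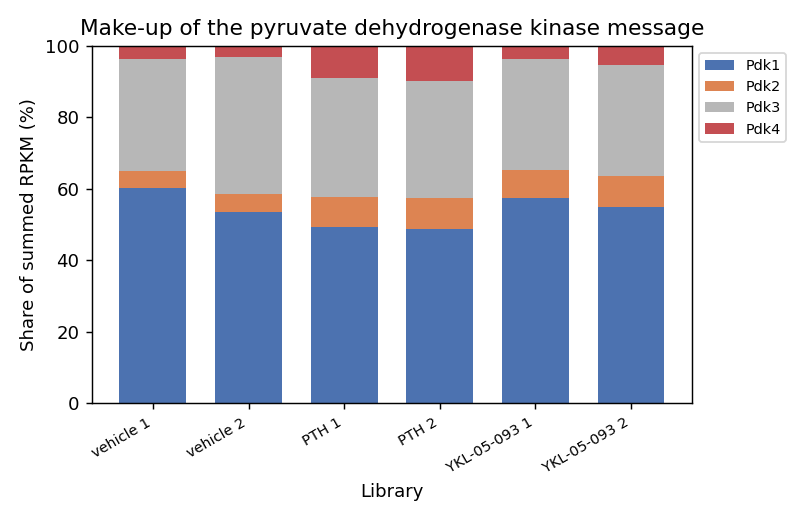
Share of each PDK gene in the summed RPKM of the 4 genes, in percent, as 1 stacked bar per library. Pdk4 takes 9.11% and 9.77% in PTH against 3.15% to 5.13% in the other libraries, and Pdk1 takes 48.6% to 60.2%.

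In RPKM, the 4 PDK genes summed to 68.7 and 60.7 in vehicle, 57.7 and 54.9 in PTH and 63.0 and 63.4 in YKL-05-093. Both PTH sums lay below the other 4, although Pdk4 was higher there. On average Pdk1 made up 56.9% of it in vehicle, 49.0% in PTH and 56.2% in YKL-05-093, and Pdk4 3.43%, 9.44% and 4.40%.

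The target of these kinases, the pyruvate dehydrogenase complex, was read through Pdha1 and Pdhb, the subunits of its first enzyme, and Dlat, its second. Pdha1 was at 35.8 and 32.7 RPKM in vehicle, 40.2 and 39.3 in PTH, and 36.0 and 37.4 in YKL-05-093. Pdhb was at 31.4 and 36.9 in vehicle, 44.0 and 39.1 in PTH, and 38.6 and 37.4 in YKL-05-093. For both genes the treated libraries were above the vehicle libraries, with log2 fold changes after PTH of 0.22 and 0.28 that did not pass (limma adjusted p = 0.677 and 0.582). Dlat lay between 11.2 and 12.8 RPKM with no call.

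Pcx (pyruvate carboxylase, which feeds pyruvate into the citric acid cycle as oxaloacetate) was at 8.6 to 11.4 RPKM. Pck2, the mitochondrial enzyme that makes phosphoenolpyruvate, was at 15.1 and 16.1 RPKM in vehicle, 19.4 and 18.5 in PTH, and 18.9 and 19.9 in YKL-05-093. The treated libraries lay above vehicle for Pck2, with log2 fold changes of 0.28 and 0.31 that did not pass (limma adjusted p = 0.545 and 0.681). Ppargc1a, the coactivator PGC-1alpha of mitochondrial genes, had 3 and 4 reads in vehicle, 3 and 3 in PTH and 14 and 6 in YKL-05-093. It did not reach the filter of 0.5 RPKM in 2 libraries and was not tested.

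Taken over the 33 members tested, PTH against vehicle called 2, both higher, beside 1.27% of all genes called higher. Past 2-fold as well was 1 member, Pdk4, beside 1.91% of all genes. At an unadjusted p under 0.05 there were 6 members (18.2%) beside 13.4% of all genes. In 8 members both PTH libraries were above both vehicle libraries, beside 19.1% of all genes, and in 14 both were below (42.4%), beside 24.0%. The median log2 fold change was -0.17 over the members and -0.03 over all genes tested.

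For YKL-05-093 against vehicle limma called 0 members, beside 0.666% of all 14255 genes, and past 2-fold 0 beside 0.666%. The fit on recovered reads with voom also called 0, beside 0.666% of all genes. At an unadjusted p under 0.05 there were 3 (Hk2, Slc16a1 and Pdk2), which is 9.09% beside 8.75% of all genes. The libraries did not overlap in 6 members that were higher, beside 15.7% of all genes, and in 10 that were lower, beside 22.1%. The median was -0.05 over the members and -0.04 over all genes. The median standard error of a member was 0.17 in both comparisons with vehicle and 0.08 between the treatments.

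Between PTH and YKL-05-093 limma called 6 members (18.2%), beside 9.81% of all genes. Of these 2 were higher after PTH, beside 4.78%, and 4 were lower, beside 5.04%. None passed 2-fold as well (0 by limma, beside 1.21% of all genes, and 0 by voom, beside 1.35%). At an unadjusted p under 0.05 there were 13 beside 22.3%. The PTH libraries were above both YKL-05-093 libraries in 8 members, beside 26.3% of all genes, and below in 17, beside 23.7%. The median log2 difference was -0.09 over the members and 0.01 over all genes.

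**Figure D4:**
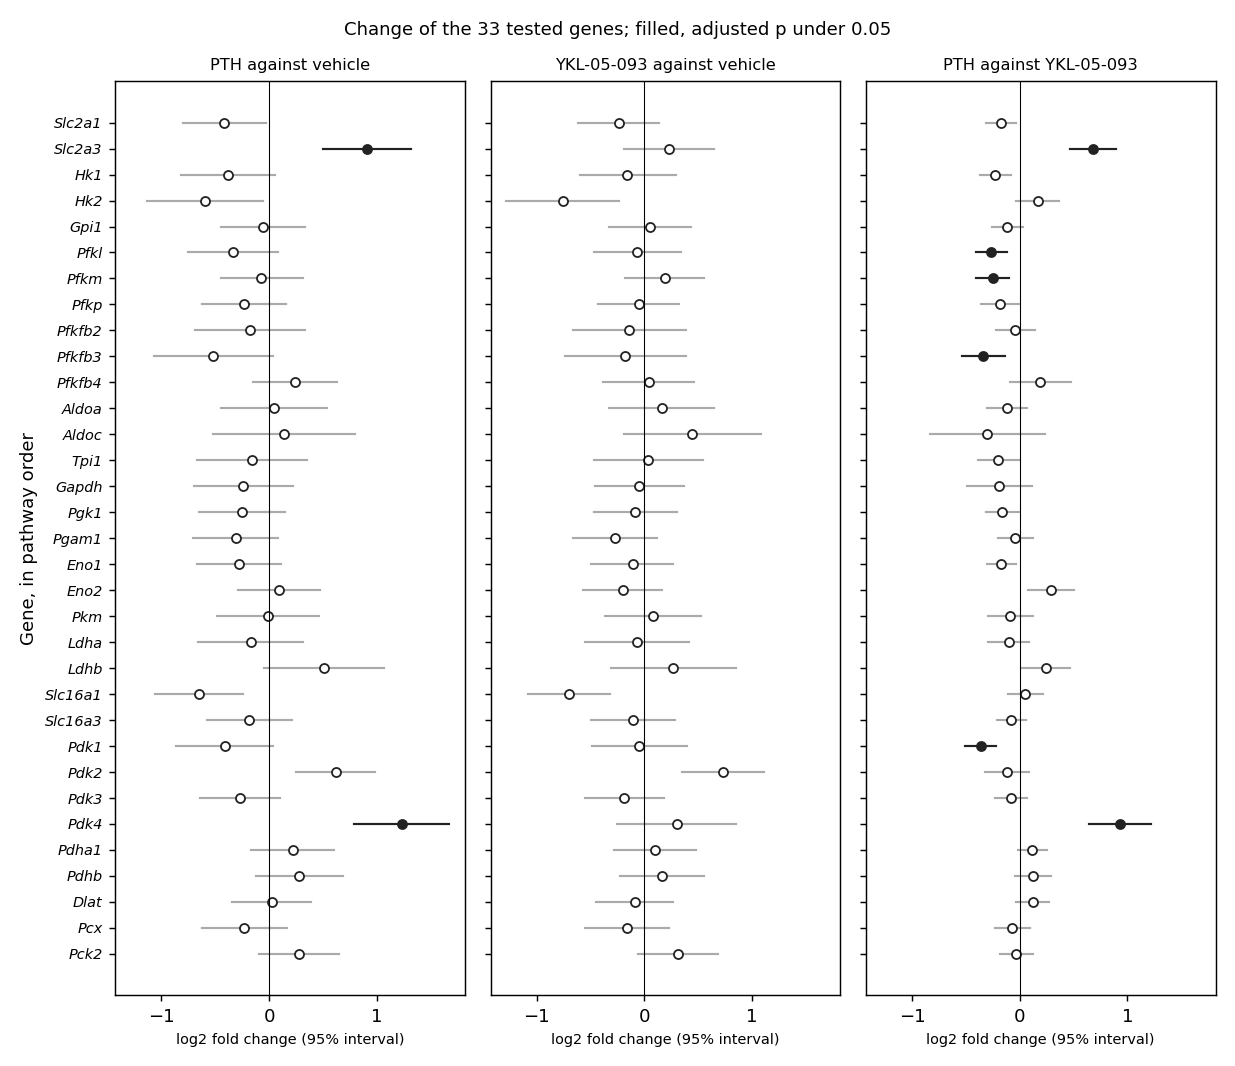
Log2 fold change with its 95% interval for the 33 tested genes in the 3 comparisons, filled where the adjusted p was under 0.05. Intervals are narrower in the comparison of PTH with YKL-05-093 (median SE 0.08) than in those with vehicle (0.17).

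The vehicle libraries differed from each other in a way that followed gene length. Over 33 members the Spearman correlation of vehicle library 2 minus library 1 (log2) with gene length was -0.76, and over 14264 genes it was -0.53. The same correlations were 0.12 and -0.02 within PTH, and 0.29 and 0.18 within YKL-05-093. Long genes such as Pfkfb3 (-0.69), Pfkfb2 (-0.59) and Hk2 (-0.58) were lower in vehicle library 2, and short ones such as Ldhb (0.70), Tpi1 (0.37) and Aldoa (0.34) were higher. With length and GC trends removed from each library, the calls for PTH against vehicle were 5 members, Slc2a3, Pdk4, Slc2a1, Slc16a1 and Pdk2, beside 2 without that step, while the share of all genes called went from 2.2% to 6.29%.

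**Figure D5:**
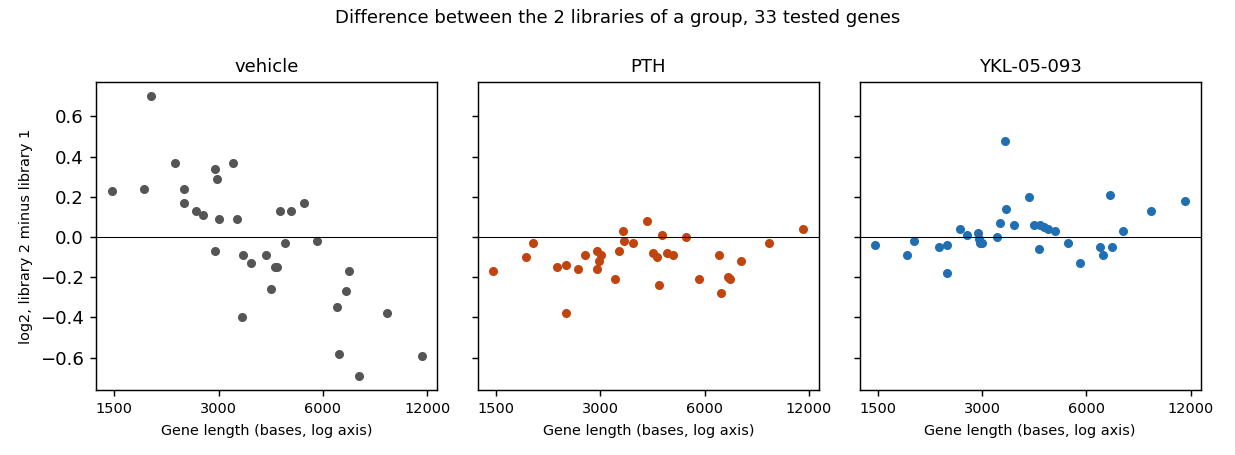
Difference between library 2 and library 1 of a group (log2 of RPKM plus 0.1) against gene length in bases on a log axis, for the 33 tested genes, 1 panel per group. Vehicle runs from 0.70 in a short gene to -0.69 in a long one, and the Spearman correlation with length is -0.76 in vehicle, 0.12 in PTH and 0.29 in YKL-05-093.

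Genes around the pathway were read in 9 lists. In the list of PDH entry genes, 1 of 7 tested genes, Pdp1, passed. It did so for YKL-05-093 against vehicle, beside 0.666% of all genes, and between the treatments, beside 9.81%. Pdp1, the phosphatase that switches the pyruvate dehydrogenase complex on and so opposes the PDK enzymes, was at 15.2 and 14.8 RPKM in vehicle, 8.56 and 8.8 in PTH, and 6.91 and 6.78 in YKL-05-093. It fell after YKL-05-093 (log2 fold change -1.12 ± 0.15 SE, limma adjusted p = 0.0349). For PTH the value was -0.78 ± 0.16 and did not pass (limma adjusted p = 0.0599), and PTH was higher than YKL-05-093 by 0.34 (limma adjusted p = 0.00566). The difference between the treatments was not called without a filter (limma adjusted p = 0.0828) or in 1 fit of all libraries (0.394). The same held with the trend of the spread on mean RPKM (0.0623). All 4 treated libraries were below vehicle. The call for YKL-05-093 was lost without YKL-05-093 library 1 (adjusted p = 0.857) or 2 (adjusted p = 0.693), with a pseudocount of 1 (0.052), without a filter (0.156) and with the trend of the spread on mean RPKM (0.0927).

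In the gluconeogenesis list 1 of 6 tested genes passed, Got1, the cytosolic aspartate aminotransferase. Got1 passed for PTH against vehicle, beside 2.2% of all genes, and between the treatments, beside 9.81%. Its level was 15.1 and 15.4 RPKM in vehicle, 41.5 and 37.5 in PTH, and 27.5 and 29.2 in YKL-05-093, with no overlap between any of the 3 groups. Got1 rose 2.57-fold after PTH (log2 fold change 1.36 ± 0.16 SE, limma adjusted p = 0.00838), and the value for YKL-05-093 was 0.89 ± 0.15 (limma adjusted p = 0.0744). The treatments differed by 0.48 (limma adjusted p = 0.000301). That difference was not called without a filter (limma adjusted p = 0.0911) or in 1 fit of all libraries (0.189). Without PTH library 1 or 2 the call against vehicle was lost (adjusted p = 0.378 and 0.321), as it was without a filter (adjusted p = 0.0643).

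Of 7 tested glucose-sensing genes 1 was called for PTH against vehicle, lower after PTH, beside 2.2% of all genes called. Myc, a driver of glycolytic genes, was at 14.0 and 14.5 RPKM in vehicle, 7.27 and 7.61 in PTH, and 7.9 and 10.1 in YKL-05-093 (PTH against vehicle -0.93 ± 0.15, limma adjusted p = 0.028, and 0.725 or 0.713 without PTH library 1 or 2, 0.0977 without a filter and 0.0516 with the trend of the spread on mean RPKM). Txnip and Arrdc4, arrestin-like genes that respond to glucose and restrain its uptake, were higher after PTH than after YKL-05-093, by 0.68 (limma adjusted p = 0.000428) and 0.93 (limma adjusted p = 0.00575). They were 2 of the 7 tested, beside 4.78% of all genes. Both calls were lost without a filter (limma adjusted p = 0.193 and 0.256) and in 1 fit of all libraries (0.3 and 0.17). They were also lost with the trend of the spread on mean RPKM (0.0878 and 0.146). Arrdc4 was at 0.78 to 2.28 RPKM on 63 to 231 reads. Txnip was at 24.8 and 17.3 RPKM in vehicle, 18.2 and 20.8 in PTH, and 10.6 and 13.9 in YKL-05-093. Both YKL-05-093 libraries were thus the lowest, while against vehicle the value of -0.77 did not pass (limma adjusted p = 0.34).

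In the other 6 lists, with 94 tested genes, limma and voom each called 0 genes for PTH against vehicle (17 or 18.1% at an unadjusted p under 0.05, beside 13.4% of all genes) and 0 for YKL-05-093 against vehicle (9 or 9.57% unadjusted, beside 8.75%). Between the treatments limma called 16 of the 94, beside 9.81% of all genes, and voom 21, beside 1572 of all 14255 genes. Of 19 tested glycogen genes 4 passed, all lower after PTH than after YKL-05-093, beside 5.04% of all genes. They were Ppp1r3c (a glycogen-targeting subunit of protein phosphatase 1, -0.91, limma adjusted p = 5.89e-07), Gyg (glycogenin, -0.56), Ppp1r3b (-0.38) and Ugp2 (-0.25). Ppp1r3c was at 19.7 and 17.7 RPKM in vehicle, 16.9 and 15.8 in PTH, and 31.9 and 29.6 in YKL-05-093. There the YKL-05-093 libraries were the ones set apart, with 0.72 against vehicle (limma adjusted p = 0.154).

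The list of HIF targets also holds the HIF genes Hif1a, Epas1 and Arnt and the regulator Vhl. Of its 22 tested genes 3 were higher and 4 lower after PTH than after YKL-05-093, beside 4.78% and 5.04% of all genes. Vegfa, Plod2 and Bnip3 were among them and are not followed further. Those with the largest change in any comparison were Ankrd37 (-0.66), Ddit4 (0.32), Ndrg1 (-0.32) and Egln1 (-0.31), given here as PTH minus YKL-05-093. The genes that passed were 2 of 21 in the citric acid cycle list (Idh1 at -0.33 and Me2 at -0.27), 1 of 10 in the pentose phosphate list (H6pd at -0.31), and 1 of 9 in the list around Ppargc1a (Pparg at -0.93). Of the 13 tested isoforms of glycolysis that are no members, 1 was higher, Slc2a8 (0.31), and 14 of the 27 listed did not reach the filter. All of these are log2 differences between the treatments that passed an adjusted p of 0.05. Pparg was near the filter, at 0.562 and 0.77 RPKM in PTH on 24 and 29 reads. With a pseudocount of 1 its difference was -0.49 and was not called (limma adjusted p = 0.0646). With PTH library 1 or 2 left out, PTH had 1 library, so those fits cannot decide whether these calls stand. Each difference named here kept its sign there. The calls named from these lists, from Ankrd37 to Slc2a8, were lost without a filter (limma adjusted p of 0.0911 or more). They were also lost with all libraries in 1 fit (0.16 or more). Of the glycogen genes, Ppp1r3c kept its call in both settings (limma adjusted p = 0.0345 and 0.019). Gyg kept it without a filter only (0.0492).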

How the data were processed

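RNA-seq of Ocy454 cells was read from 2 libraries per treatment (directional, depleted of ribosomal RNA, 50-bp pairs). The authors aligned reads with STAR to mm10, counted them per gene with HTSeq on an Ensembl annotation and deposited RPKM on a linear scale. CASAVA 1.7 is named in the submitters' processing notes. The strand setting and the treatment of multi-mapped reads are not given in the sources used here. Whole reads behind each RPKM were recovered from the steps between values and used for depth, for the trend of the spread and for voom.

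The test was that of limma 3.58.1 (R 4.3.3), applied to log2(RPKM + 0.1), so fold changes of low genes are understated, for genes with at least 0.5 RPKM in 2 libraries. Each comparison was fitted on its 4 libraries, with a trend on mean log2 reads and Benjamini-Hochberg adjustment over all genes tested. Genes were called at an adjusted p under 0.05. An exact permutation test of 2 against 2 libraries cannot go under 0.333. The fit and the read recovery were tested on simulated data. For the fit, all simulated libraries had the same spread and no tie to gene length. That test therefore cannot speak to the wider, length-related gap of the vehicle libraries. Positions and 50-base stretches are from GENCODE M21 and promoters from RefSeq, both on GRCm38. All members are accounted for. From the other lists, values are given for genes past the test in any comparison, up to 4 per list by the largest change in any comparison. Members and lists were chosen with earlier results of these data known. The number of libraries limits the precision.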

Additional observations from a re-analysis of the deposited data

Results flagged for a closer look

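Each of the following genes differed between PTH and YKL-05-093 in the fit of those 4 libraries (adjusted p under 0.05 from limma), which is why it is listed. The log2 difference, PTH minus YKL-05-093, was 0.68 for Slc2a3, 0.93 for Pdk4, -0.36 for Pdk1, -0.27 for Pfkl, -0.34 for Pfkfb3 and -0.25 for Pfkm. With all 6 libraries in 1 fit, which takes in the wider spread of the vehicle libraries, 0 of these 6 differences passed, beside 1.03% of all genes. Groups of 2 libraries were too small for a search for outlying libraries.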

How the results depend on the processing

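For PTH against vehicle, 2 members were called. The count was 1 with a pseudocount of 0.01 or 1, beside 2.03% and 2.23% of all genes. It was 4 with all libraries in 1 fit (4.03%) and 5 with length and GC trends removed (6.29%). When the trend of the spread followed mean RPKM it was 0 (1.14%). Without a filter 0 of all 25085 genes passed, so that setting ended every call, those of the members included. With 1 library left out the count of members moved as well. It was 15 without vehicle library 2, when 31.7% of all genes were called, 6 without vehicle library 1 (9.35%) and 0 without PTH library 1 (0.105%) or 2 (0.168%). Past 2-fold as well was 1, which became 0 with a pseudocount of 1, without a filter or with that other trend, 2 with the trends removed, and 0 to 2 when leaving out 1 library. For YKL-05-093 against vehicle the count of 0 became 2 in 1 fit (beside 2.01% of all genes) and 3 with the trends removed (3.16%). Without a filter 0 of all 24944 genes passed there. Between the treatments, 6 became 0 without a filter (beside 1.22% of all genes), in 1 fit (1.03%) or with that other trend (3.5%). It became 10 with the trends removed (12.4%). With a pseudocount of 1 the calls of Pfkfb3 and Pfkm between the treatments were lost. The cause of these moves was not tested, and length and GC trends were removed together.

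No value that passed the test in the main fit changed direction in any alternative. Values not called in the main fit did, also for genes called there in other comparisons. Pfkfb3 for YKL-05-093 against vehicle, for 1, ran from -0.52 to 0.17. Each alternative was compared with the main fit only, so a value called in 1 alternative could have the other sign in another. Of 987 member values under these alternatives, 936 kept direction and side of the threshold, 20 became called, 26 lost a call and 5 uncalled values changed sign, and with 1 library left out these were 319, 22, 25 and 30 of 396. With 1 library left out, a group had 1 library, which is assumed to vary like the other group. Such a fit cannot decide whether a call stands, so calls lost or gained there are a description only. Same-numbered libraries did not deviate together (correlations of -0.0336, -0.054 and -0.0494), so replicate numbers were not taken to pair libraries. With the replicate number as a block, the calls were 2, 0 and 8 members in the 3 comparisons, beside 5.34%, 2.13% and 12.3% of all genes.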
